A study of Mus musculus with 8 samples.

Results

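In mouse embryonic stem cells in which Ogt, the gene of O-GlcNAc transferase, was deleted, the autosomes had 330 places where a region of lower and a region of higher 5-hydroxymethylcytosine (5hmC) signal lay side by side, less than 10 kb apart. Such a neighbouring set is called a switch here. The switches held 338 lower and 347 higher regions, 685 of the 12594 regions in the authors' 2 lists. They were chosen by direction and distance alone: every lower autosomal region with a higher region whose nearest edge was under 10 kb away, together with those higher regions. Because the choice used the lists' own directions, the number of switches and the gaps inside them are descriptions and were not tested.

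The 5hmC-bearing DNA was recovered by CMS-IP, in which bisulfite turns 5hmC into cytosine 5-methylenesulphonate and an antibody captures fragments that carry it. All cells carried floxed Ogt alleles (Ogt fl/fl), grew on mitomycin C-treated feeder fibroblasts and were sorted as viable cells by surface CD90.2 and CD326 to remove the feeders. The labels give CD90.2 as the positive and CD326 as the negative marker of the stem cells, although CD326 (EpCAM) is known from stem cells and CD90.2 (Thy1) from fibroblasts, and the identity of the sorted cells could not be checked in lists of positions. The Ogt iKO group received 4-hydroxytamoxifen (4-OHT) for 6 days and was sorted for the YFP reporter as well, while the control group was kept without 4-OHT, so that the deletion, the drug and the YFP sort cannot be told apart. Each group gave 2 CMS-IP and 2 input libraries, 8 samples in 4 groups. The lists give a chromosome, a start and an end for each region and no fold change, p-value or value per sample, so depth and replicate spread are unknown and the loss of Ogt itself could not be checked. Shares below carry 95% Wilson intervals, which cover counting error over regions only. Regions are not replicates of a condition, and no test between sets of regions was made.

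5hmC is made when TET dioxygenases oxidise 5-methylcytosine, and it is an intermediate on the way to unmethylated DNA. It is known to sit in gene bodies and at enhancers of embryonic stem cells and to be scarce at the unmethylated CpG-rich starts of active genes. OGT adds O-GlcNAc to serine and threonine residues of many nuclear proteins and binds TET proteins. CMS-IP reads 5hmC and not 5-methylcytosine.

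In 4 switches the lower region lay over the listed start of a protein-coding gene, and the 250 bases before each start are shown because they let a reader see how unlike these places were in CpG content. The sequences come from RefSeq (GRCm38.p6, whose chromosomes are those of mm10), are written 5′ to 3′ on the gene's strand, and have each CpG in capitals. All 250 bases were covered by the lower region in each case. Ddx4 encodes a germ-cell RNA helicase (chr13:112652311-112652560, minus strand), Stk31 a kinase-like protein of the germ line (chr6:49395289-49395538, plus strand), Fgfbp3 a binding protein of fibroblast growth factors (chr19:36919600-36919849, minus strand), and Bcl2l1 the survival protein Bcl-xL (chr2:152828490-152828739, minus strand).
Ddx4: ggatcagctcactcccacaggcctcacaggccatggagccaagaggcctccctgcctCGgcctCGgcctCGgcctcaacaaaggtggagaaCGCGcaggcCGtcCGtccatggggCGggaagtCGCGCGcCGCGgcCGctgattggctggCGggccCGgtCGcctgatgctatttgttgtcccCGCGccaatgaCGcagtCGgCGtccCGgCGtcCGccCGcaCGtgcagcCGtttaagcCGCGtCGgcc
Stk31: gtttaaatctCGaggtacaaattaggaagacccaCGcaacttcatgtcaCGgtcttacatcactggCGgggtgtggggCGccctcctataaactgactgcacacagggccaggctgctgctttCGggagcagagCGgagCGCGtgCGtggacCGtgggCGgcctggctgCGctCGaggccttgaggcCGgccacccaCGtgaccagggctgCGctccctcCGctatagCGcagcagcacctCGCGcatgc
Fgfbp3: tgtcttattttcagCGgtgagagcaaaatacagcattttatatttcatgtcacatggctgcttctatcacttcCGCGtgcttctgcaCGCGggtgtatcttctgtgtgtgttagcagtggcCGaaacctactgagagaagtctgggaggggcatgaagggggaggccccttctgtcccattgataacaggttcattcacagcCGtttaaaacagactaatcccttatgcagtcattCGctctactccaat
Bcl2l1: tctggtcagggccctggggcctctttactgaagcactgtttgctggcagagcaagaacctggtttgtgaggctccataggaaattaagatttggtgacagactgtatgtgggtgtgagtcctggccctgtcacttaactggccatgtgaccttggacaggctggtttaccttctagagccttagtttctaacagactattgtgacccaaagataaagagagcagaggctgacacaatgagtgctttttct

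The printed stretch held 31 CpGs at Ddx4, 21 at Stk31, 8 at Fgfbp3 and 0 at Bcl2l1. With the 50 bases after the start included, the Ddx4 window of 300 bases had 38 CpGs, more than 94.9% of the 31396 autosomal promoter windows of that length, and the Stk31 window had 29, more than 86.7% of them. A second listed Stk31 start under the same lower region, not printed, had 26 CpGs in its 250 bases and 28 in its window. The Fgfbp3 window had 9 CpGs, above 53.8% of windows, and the Bcl2l1 window 1, above 5.25%. The median over those windows was 7, and 94.8% held at least 1 CG, which reads the same on both strands. The windows at these starts thus ran from CpG-dense to nearly CpG-free, the latter at Bcl2l1 alone, while CpGs in the rest of the regions were not counted. The listed Bcl2l1 start lay inside the gene's span and not at its 5′ end, and the lower midpoint there was at 6.72% of the span's length.

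Each of these starts had its higher neighbour several kb away. At Ddx4, the lower region of 1402 bp (chromosome 13, 112651458 to 112652859) reached from 549 bp before the start to 852 bp after it, and the higher region of 813 bp lay inside the gene, 7349 to 8161 bp from the start. At Stk31, the lower region of 1242 bp (chromosome 6, 49395118 to 49396359) ran from 421 bp before to 820 bp after the start, and the higher region of 323 bp lay upstream, 6467 to 6789 bp before it. At Bcl2l1, a lower region of 2178 bp (chromosome 2, 152827667 to 152829844) was flanked by a higher region on both sides, each 200 bp wide, the nearer at a gap of 8710 bp. At Fgfbp3 the lower region spanned 315 bp (chromosome 19, 36919597 to 36919911) and ended 2 bp past the start, and a higher region of 866 bp lay 2974 to 3839 bp beyond the start in the direction of transcription. Ddx4 lay outside the rule for naming genes and is described because it was among these 4 starts, which were picked out after their values were seen.

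Most switches were simple. Of the 330, 308 consisted of 1 lower and 1 higher region, 19 of 3 regions and 3 of 4. By coordinate, 160 ran higher then lower and 148 lower then higher. A lower region between higher ones made up 9 of the 3-region switches, and a higher region between lower ones 5. The median switch spanned 6964 bp from outer edge to outer edge (interquartile range 3991 to 9548 bp, 330 switches), of which a median of 1142 bp was called. No further region lay within 10 kb of the outer edges in 313 switches (94.8%, 91.9 to 96.8%) and none within 100 kb in 76 (23.0%, 18.8 to 27.9%). The first count is partly set by the rule, which joins any opposite region within 10 kb to the switch.

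**Figure D1:**
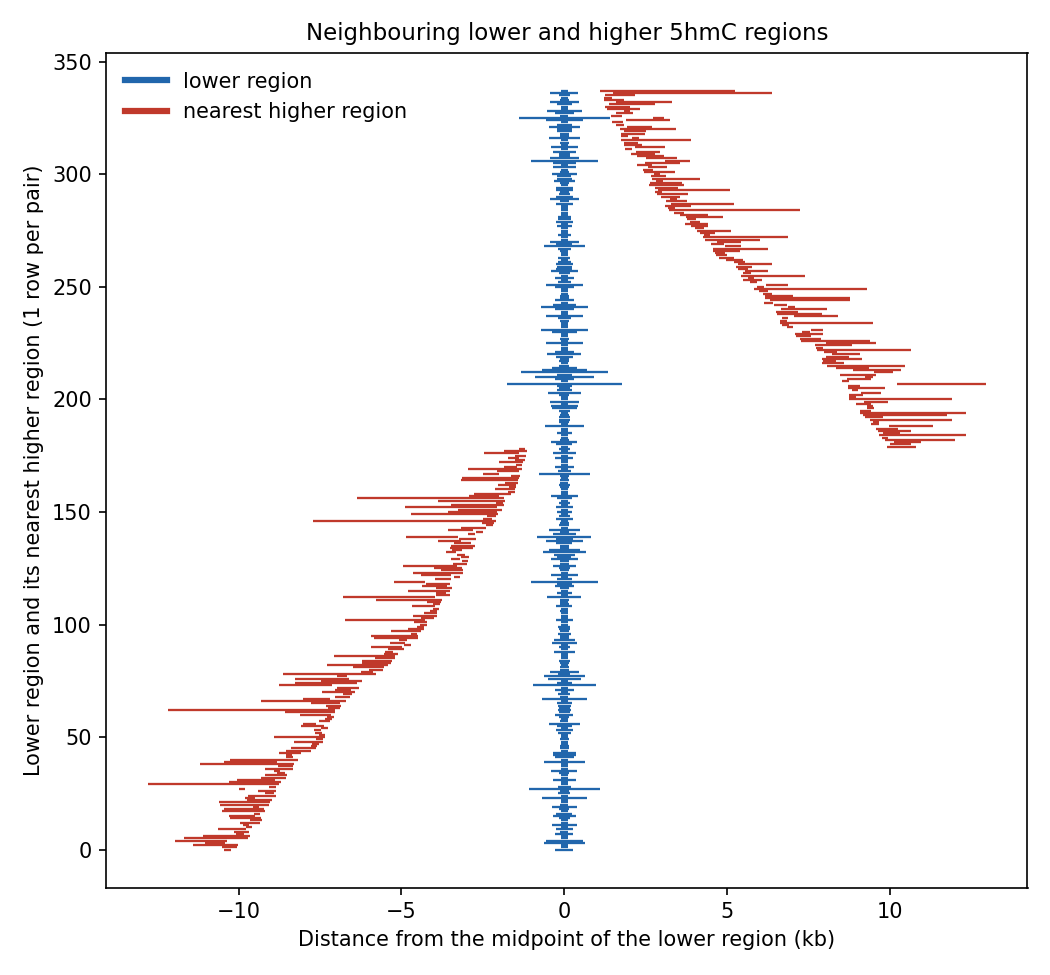
Each row is a lower region (blue) and its nearest higher region (red), placed by distance in kb from the midpoint of the lower region and sorted by side and gap. Of the 338 pairs, 179 have the higher region at the lower coordinate, and the higher bars are often the longer ones.

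Within a switch the higher region was usually the wider. The higher region was wider in 216 of 338 nearest pairs (63.9%, 58.7 to 68.8%), the lower region in 115, and the widths were equal in 7. The median ratio of higher to lower width was 1.47 (interquartile range 0.798 to 3.47), with the higher region at least 2 times as wide in 136 pairs and the lower one in 45. Taking every combination of the other higher and lower autosomal regions, the higher was wider in 60.7%, inside the interval for the pairs, and the difference was not tested. The widths of paired neighbours were nearly unrelated (Spearman's rho -0.0911 over 338 pairs, which come from the same libraries and in some cases share a region).

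Higher regions in switches had a median width of 632 bp (interquartile range 284.5 to 1115 bp, 347 regions), against 541 bp (264 to 951 bp) for the 8212 other higher regions. Regions of at least 2000 bp made up 9.80% of them (7.10 to 13.4%) and 6.75% of the others (6.22 to 7.31%). The 883 higher regions that had another higher region within 10 kb but no lower one stood between, with a median of 573 bp (287 to 1021 bp). Distances were taken between edges, and whether that choice bears on these widths was not tested. Lower regions in switches had a median of 309 bp (216 to 557 bp, 338 regions) and the 3623 others 321 bp (222 to 624 bp). The 163 lower regions with a lower but no higher neighbour within 10 kb were wider, at 383 bp (256 to 752 bp), and 17.8% of them (12.7 to 24.4%) reached 1000 bp, against 9.47% (6.79 to 13.1%) of the lower regions in switches. Lower regions beside a gain thus had a median close to that of the rest of their list, and higher regions beside a loss had a somewhat larger one than the rest of theirs, with quartiles that overlap widely.

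**Figure D2:**
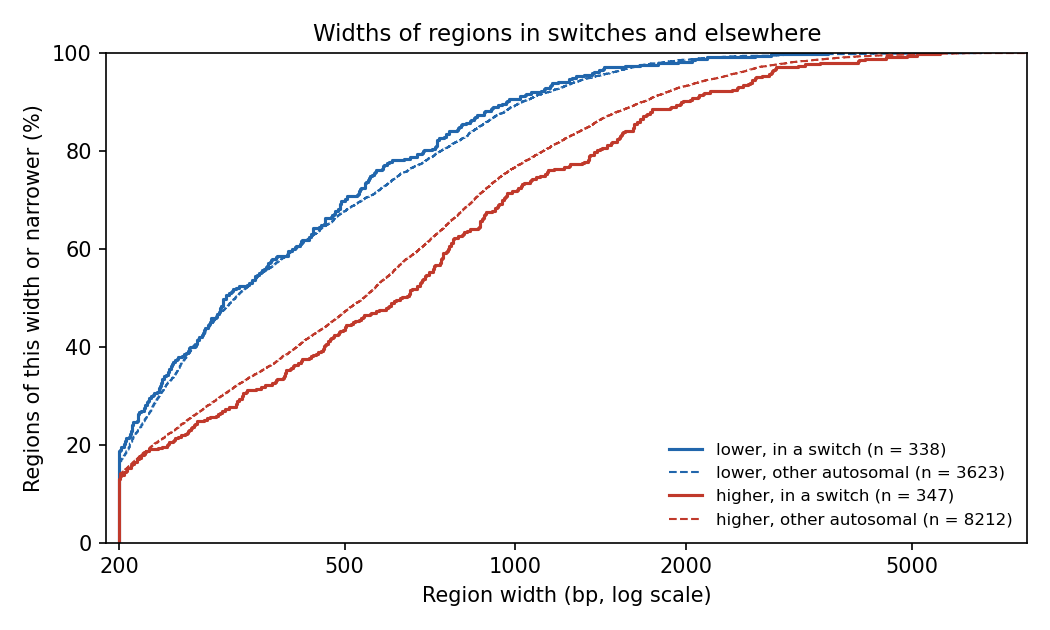
The curves give the percentage of regions (vertical axis) at or below a width in bp (horizontal, log scale) for regions in switches (solid) and other autosomal regions (dashed). The lower curves nearly coincide, with medians of 309 and 321 bp, and the higher curve of the switches lies to the right, with a median of 632 against 541 bp.

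By covered sequence, 212 switches had more higher than lower bp (64.2%, 58.9 to 69.2%) and 111 more lower than higher. Higher regions made up 65.5% of the called bp in switches and 77.6% of that in the other autosomal regions, where they are also far more numerous.

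The gap between a lower region and its nearest higher region had a median of 5030.5 bp (interquartile range 2542 to 7714 bp, 338 pairs). No pair of regions in the lists is closer than 1001 bp. Gaps of 1 to 2 kb were the most frequent, with 62 pairs, and counts per kb fell to 25 at 5 to 6 kb before reaching 44 at 8 to 9 kb. Adjacent higher regions under 10 kb apart had a similar median gap of 5140 bp (470 pairs), and adjacent lower regions one of 4592 bp (87 pairs). The share under 2 kb was 17.8% (14.2 to 22.2%) for the 348 adjacent opposite pairs, 15.3% (12.3 to 18.9%) for higher pairs and 23.0% (15.4 to 32.9%) for lower pairs. These intervals overlap. At 8 to 9 kb the shares were 13.5% for opposite, 9.57% for higher and 8.05% for lower pairs, and a preferred spacing was not tested. In the 62 closest pairs the higher region was wider in 71.0% (58.7 to 80.8%), in the 105 pairs of 2 to 5 kb in 62.9% (53.3 to 71.5%) and in the 171 of 5 to 10 kb in 62.0% (54.5 to 68.9%). At the limit, the widest gap included was 9959 bp (chromosome 10, lower region 19459183 to 19459733) and the narrowest left out was 10018 bp (chromosome 2, lower region 33332436 to 33333762, in Ralgps1).

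**Figure D3:**
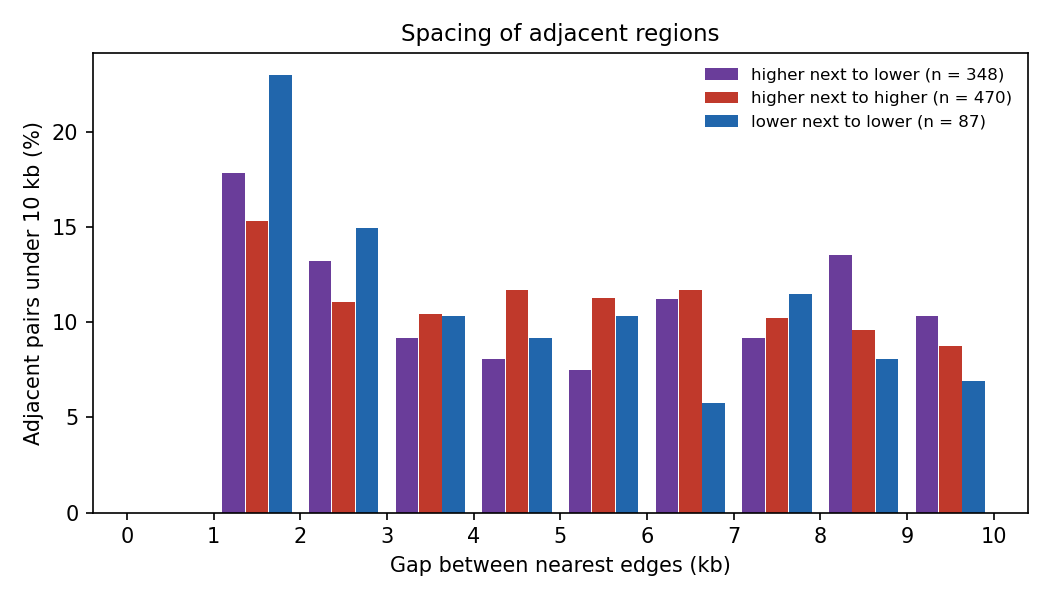
Bars give the percentage of adjacent pairs under 10 kb (vertical axis) by gap in kb (horizontal) for opposite pairs, higher pairs and lower pairs. All 3 kinds have their tallest bar at 1 to 2 kb, 17.8%, 15.3% and 23.0%, and none below 1 kb.

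Switches lay mostly inside genes. A higher and a lower region shared a gene in 184 of 330 switches (55.8%, 50.4 to 61.0%), and in 171 that gene was protein-coding. Another 91 switches (27.6%, 23.0 to 32.6%) had no midpoint in any gene, and 55 had some midpoint in a gene but no shared one. Pair by pair, 55.3% of the nearest opposite pairs shared a gene (50.0 to 60.5%), against 62.3% (57.9 to 66.6%) of adjacent higher pairs and 49.4% (39.2 to 59.7%) of adjacent lower pairs. Opposite neighbours fell between the same-direction kinds, with overlapping intervals.

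Lower regions in switches lay inside genes, more than 1 kb from a gene end, in 57.7% (52.4 to 62.8%) of cases, against 52.1% (50.4 to 53.7%) of the other lower regions. Higher regions did so in 59.4% (54.1 to 64.4%) in switches and 58.1% (57.0 to 59.1%) elsewhere. Within 1 kb of a gene end were 10.1% (7.29 to 13.7%) of the lower and 9.80% (7.10 to 13.4%) of the higher regions in switches, and 10.3% and 7.76% of the others.

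No preferred order along the gene was detectable. Of the 187 nearest pairs that shared a gene, 144 lay in genes with a single listed strand, and the higher region was on the 5′ side in 74 of them (51.4%, 43.3 to 59.4%). Plus-strand genes gave 41 of 72 and minus-strand genes 33 of 72. Measured from the gene's start, the lower midpoint lay at a median of 46.7% of the gene's length (interquartile range 25.5 to 76.0%) and the higher midpoint at 47.1% (25.0 to 72.6%), so the pairs were spread along the gene body. Where the higher region was the wider, it was on the 5′ side in 52 of 90 pairs (57.8%, 47.5 to 67.5%), and where the lower was the wider, in 21 of 51 (41.2%, 28.8 to 54.8%). These intervals overlap and each includes an even split.

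Near gene starts the lower region was more often the closer. Among 55 nearest pairs with a region within 5 kb of a listed protein-coding start, the lower was nearer in 36 (65.5%, 52.3 to 76.6%), while over all 323 pairs with start sites on their chromosome it was nearer in 177 (54.8%, 49.3 to 60.1%). Within 1 kb of such a start lay 16 of 323 lower regions in switches (4.95%, 3.07 to 7.89%) and 6 of 331 higher ones (1.81%, 0.833 to 3.90%). The other regions gave 4.35% (3.72 to 5.08%) and 1.63% (1.38 to 1.94%), each inside the interval for switches. A lower region near a start was thus about as frequent outside switches, and whether the difference between directions was unlike that in switches was not tested. The start itself was covered by 4 lower regions (1.24%, 0.483 to 3.14%), against 0.458% (0.282 to 0.743%) of other lower regions. It was covered by 0 of 331 higher regions, which allows a share of up to 0.906% by the limit of 3 counts (Wilson upper bound 1.15%), and by 0.355% (0.245 to 0.512%) of other higher regions. A promoter window of any listed gene was touched by 8 lower regions in switches (2.48%, 1.26 to 4.81%) and by 1.26% (0.940 to 1.69%) of other lower regions.

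The tightest switch at a coding start was at Isoc2a, a member of the isochorismatase family, where a higher region of 390 bp lay 853 to 1242 bp before the start and a lower one of 245 bp 463 to 707 bp after it (chromosome 7, gap 1315 bp). In Chrna9, the gene of a nicotinic acetylcholine receptor subunit, both regions lay inside the gene's span, the higher at 65.8% and the lower at 72.7% of its length. A listed start inside the span lay beyond both in the direction of transcription, 991 bp from the lower one. Lower regions were also the nearer at Krtap4-1, a keratin-associated protein gene (351 bp from the start), and at Zbtb11, a zinc finger regulator (912 bp). The listed Zbtb11 start lay inside the gene's span, with the midpoint of this lower region at 2.35% of its length. A second lower region lay beyond the higher one. Higher regions were the nearer at Zcchc4, a methyltransferase of ribosomal RNA (728 bp), Sestd1 (658 bp) and the zinc finger gene Zfp324 (696 bp). At Cenpt, the gene of a kinetochore protein, a higher region of 1248 bp lay 243 bp before the listed start inside the gene's span. Its lower neighbour of 216 bp lay 707 bp before the start of Nutf2, a nuclear import factor (chromosome 8, gap 6112 bp). The start of Thap11 lay in that gap, 1605 bp from the higher and 4508 bp from the lower region. All 6 higher regions near starts lay upstream of the listed start. Those at Zcchc4 and Cenpt were nevertheless inside the gene's span, the former at 13.8% of its length. The 16 lower ones lay upstream, across and downstream. The side was not counted for regions outside switches, so this contrast has no background and was not tested.

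**Figure D4:**
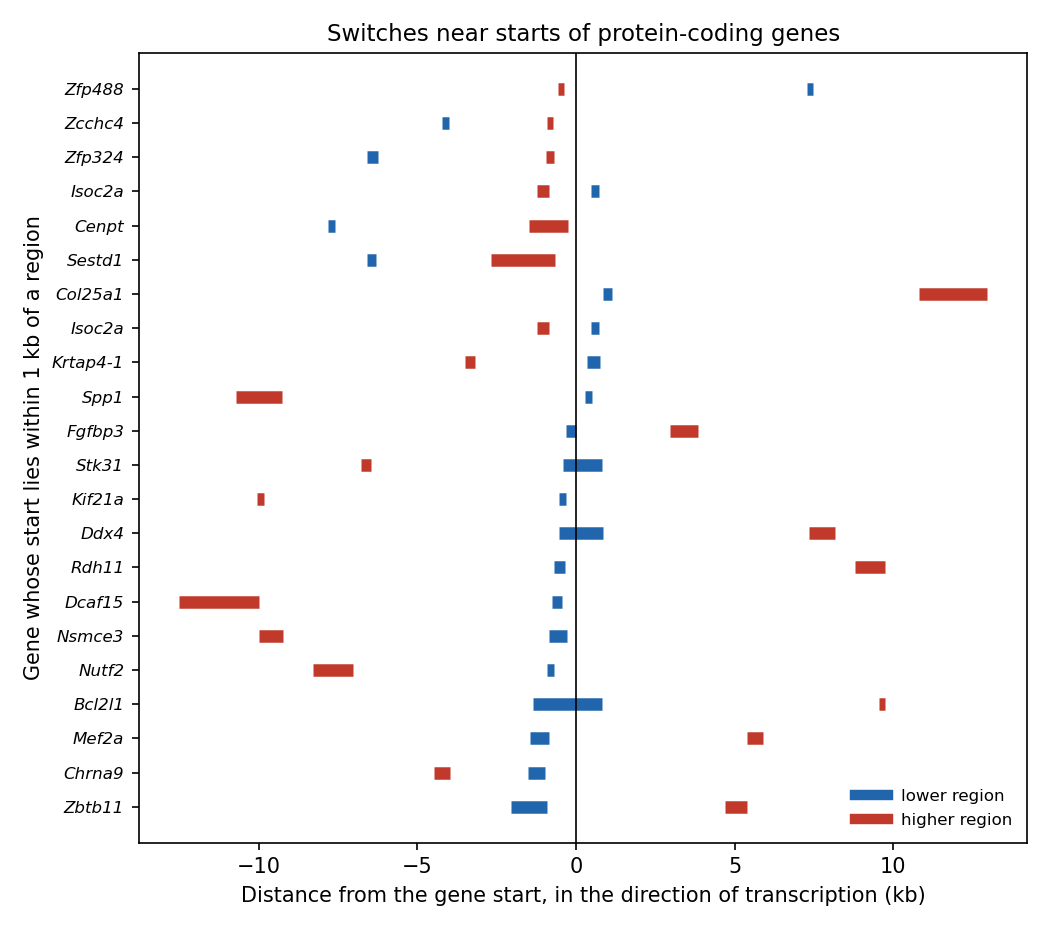
Each row is a region within 1 kb of a protein-coding start and its nearest opposite neighbour, by distance in kb from the start in the direction of transcription (lower in blue, higher in red). The 6 higher regions near starts lie to the left of the line, and 4 lower regions, at Ddx4, Stk31, Fgfbp3 and Bcl2l1, cross it; Isoc2a appears in 2 rows because both its regions are within 1 kb.

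The smallest gap of all, 1001 bp, separated a lower region of 200 bp from a higher region of 4142 bp at Sema6a, a transmembrane semaphorin of axon guidance (chromosome 18, 47244251 to 47249593). The next in a gene, at 1043 bp, belonged to Per2, a core component of the circadian clock. There 2 lower regions of 200 bp each sat between higher regions of 718 and 245 bp (chromosome 1, 91432819 to 91446284). In Zfp704, a zinc finger gene, a lower region of 857 bp and a higher region of 4897 bp were 1050 bp apart (chromosome 3, 9491443 to 9498246). Gaps of 1086, 1092 and 1098 bp followed in Raver2, an RNA-binding protein gene, in Tmem135 and in Dtnb, the gene of beta-dystrobrevin. Of the other 4 switches among the 10 closest, 3 had no midpoint in a gene, and 1, on chromosome 17, lay in the noncoding gene Gm31615.

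Switches of more than 2 regions numbered 22, and the largest had 4. In Epb41, which encodes the membrane skeleton protein 4.1, a lower region of 200 bp lay among higher regions of 200, 612 and 204 bp (chromosome 4, 131952210 to 131963279). Around Seh1l, a nucleoporin gene, directions alternated: higher 5605 bp, lower 200 bp, higher 478 bp and lower 266 bp (chromosome 18, 67783836 to 67798572). A lower region between higher ones occurred in Raver2, in Fbn2 (fibrillin-2), in Mllt3, part of a transcription elongation complex, and in Pde4d, a cyclic AMP phosphodiesterase. In Pde4d the lower region was the widest of the set, at 2820 bp against 603 and 323 bp (chromosome 13, 109769437 to 109783700), while in Mllt3 it was 221 bp against 746 and 200 bp. In Srcap, a chromatin remodeller that deposits H2A.Z, higher regions of 648 and 1126 bp were followed by a lower region of 200 bp (chromosome 7, 127549133 to 127554434). Dleu7 was the gene at a switch with lower, higher and lower regions on chromosome 14, and a set of 1 lower and 2 higher regions on chromosome 16 lay outside any gene (56799040 to 56804980).

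The widest higher region in a switch was the one of 5605 bp at Seh1l. Then came a region of 5115 bp outside any gene (chromosome 16, 11281986 to 11287100), the region in Zfp704, one of 4509 bp at Smg8, a factor of nonsense-mediated decay (chromosome 11, 87077213 to 87081721), and the region at Sema6a. Their lower neighbours were narrow, between 200 and 857 bp. Among lower regions, 3555 bp in Tbcel, a tubulin-cofactor-like gene (chromosome 9, 42436588 to 42440142), was the widest, with a higher neighbour of 2718 bp at 8430 bp. The others of the 5 widest were those in Pde4d and over the listed start inside Bcl2l1, one of 2645 bp outside any gene on chromosome 13 and one of 2076 bp in Plekhd1. Among these 10, the region in Tbcel was the only one with a neighbour of at least 2000 bp.

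Only 168 of the 691 autosomal protein-coding genes that held both directions had them within 1 switch (24.3%), and in the other 523 the directions were farther apart. Genes with a switch had a median length of 113 kb (interquartile range 58.1 to 252 kb), shorter than the 199 kb (106 to 398 kb) of genes with both directions apart and longer than the 58.9 kb of the 3520 genes with a single direction. All 20560 autosomal protein-coding genes had a median of 17.6 kb. The first contrast is partly set by the rule, since a gene too short for regions 10 kb apart cannot hold both directions apart. The shortest gene was 4.119 kb with a switch and 15.343 kb with both directions apart. A longer gene also has room for more regions, and the part of gene length in these contrasts was not tested. Of the 2312 genes of at least 100 kb, 4.15% held a switch, and of the 18248 shorter genes, 0.395%.

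Some genes held more than 1 switch. Atrnl1, which encodes an attractin-like membrane protein (chromosome 19, 57610960 to 58133343, plus strand), had 3, all with the higher region on the 5′ side: 1917 bp higher and 481 bp lower at 19.2% and 20.6% of the gene's length, 685 and 714 bp at 27.8% and 29.5%, and 200 and 200 bp at 45.2% and 46.0%. It held 5 higher and 3 lower regions in all, 6 of them in switches. Fam189a1 (chromosome 7, 64756091 to 65156528) had 2 switches among 3 higher and 5 lower regions, one with the higher region on the 5′ side and one with the lower. The small gene Nsmce3, a subunit of the SMC5/6 complex, starts 298 bp from a lower region of Fam189a1. Mtus1, Ranbp17 and Pde4d held 3 regions in switches each, as did Rapgef5, Raver2, Srcap, Seh1l, Zbtb11, Fbn2 and Mllt3.

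A set of 11 gene groups were looked up, and their members are given by counts. As background, of all 20560 autosomal protein-coding genes, 4211 held any region, 691 both directions and 168 a switch (0.817%). Of 90 genes of axon guidance and synaptic adhesion, 46 held any region, 14 both directions and 5 a switch (5.56%). These were Sdk1, Ntm, Sema6d, Opcml and Tenm3, all adhesion or guidance molecules of neurons, with gaps from 2360 to 7739 bp. The median gene of that group was 201 kb long, against 17.6 kb for all, and 60 of the 90 were at least 100 kb long. The part of gene length in this count was not tested. The pairs lay at 35.6% and 35.9% of the length of Sdk1 and near the 3′ end of Sema6d, at 94.7% and 95.4%.

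The group listed as voltage-gated and glutamate-gated channels, which also takes in related genes, gave 3 switches in 175 genes (1.71%). These were Kcnab2, a potassium channel beta subunit, Kcnu1, a sperm potassium channel, and Ryr2, the cardiac ryanodine receptor. Extracellular matrix and integrin genes gave 3 in 161 (1.86%): Fbn2, Itga9, an integrin alpha subunit, and Col25a1, a transmembrane collagen. At Col25a1 a lower region of 280 bp lay 844 bp after the start and a higher one of 2139 bp lay 9694 bp beyond it. Among 243 lineage transcription factor genes, 2 held a switch (0.823%), Mef2a, a regulator of muscle genes, and Tbx18, a T-box factor of the developing heart and somites. In Mef2a the lower region of 585 bp was 857 bp from the listed start inside the gene's span and the higher one of 497 bp lay on the other side of that start.

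Of 33 genes of DNA methylation and heterochromatin, 1 held a switch: Ehmt1, a histone H3 lysine methyltransferase, with lower 478 bp at 6.78% and higher 878 bp at 12.5% of its length (chromosome 2, 24903142 to 24911144). Cadherins and protocadherins had regions in 39 of 116 genes, both directions in 5 and 0 switches. None was found either in the 24 genes of TET, OGT and 5hmC handling, 30 of pluripotency, 66 of Nodal, BMP and TGF-beta signalling, 78 of Wnt signalling or 84 of FGF and receptor tyrosine kinase signalling, where 6, 2, 14, 19 and 28 genes held any region. With a background of 0.817%, a count of 0 in any 1 group of this size does not set that group apart. Genes of at least 100 kb numbered 48 among the cadherins and 25 among the FGF and receptor tyrosine kinase genes, and the part of gene length in these counts was not tested.

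Switches occurred on all 19 autosomes, from 10 on chromosome 15 to 25 on chromosomes 2 and 7. Lower regions had a higher one within 10 kb in 8.53% of cases over all autosomes (7.70 to 9.44%, 338 of 3961), from 5.18% on chromosome 6 (3.05 to 8.66%) to 12.9% on chromosome 19 (7.54 to 21.2%). The interval of each of the 19 chromosomes included the overall share. Of higher autosomal regions, 4.05% (3.66 to 4.49%, 347 of 8559) were in a switch, the smaller share following from the longer list.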

How the data were processed

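CMS-IP and input libraries from Ogt iKO and control mouse embryonic stem cells were grouped by sample title, 2 per group. The authors deposited 2 lists of region positions on mm10, 8578 higher and 4016 lower, per the file names. Both names spell the knockout OgtiTKO, taken here to mean Ogt iKO. Bismark and MACS2 are named in the submitters' processing notes, with no role or version. The differential test, its threshold and the use of replicates, inputs and spike-ins are not given in the sources used here. No region is narrower than 200 bp, and none lies closer than 1001 bp to another, which bounds widths and gaps from below.

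Starts were read as 0-based and are printed 1-based. Gaps are bp between nearest edges, and linked regions form a switch. Genes came from a RefSeq table of GRCm38.p6 (49603 of 49997 entries used, those with scaffold, patch or mitochondrial coordinates left out). Classes used region midpoints and a window of 1 kb around gene ends. Strand and start sites came from a RefSeq table of 32851 promoter windows, with a strand for 80.3% of protein-coding genes and windows on 18 autosomes. A position in a gene is its midpoint's distance from the 5′ end of the span. Genes were named by rule: the 10 smallest gaps, the 10 switches of most regions, the 5 widest regions of each direction, the 10 genes with most such regions, up to 10 switches at starts, and up to 5 per gene group. Among these genes, 1 is not reported here. The members and lists were chosen with earlier results of these data known. Alternatives were other distance limits, midpoints, sex chromosomes, wider regions, other gene-end windows and protein-coding genes only. Python 3.11.15, numpy 2.4.6, pandas 2.3.3 and scipy 1.17.1 were used, and the procedures were tested on simulated data.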

Additional observations from a re-analysis of the deposited data

How the results depend on the processing

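Of 33 recomputed values for 11 results, 22 stayed within the 95% interval of the main value (counts within 1.5 times) and 11 moved. The number of switches was 164 with a limit of 5 kb and 656 with 20 kb, since the limit sets it, 308 by midpoints and 330 with sex chromosomes. Without regions of 200 bp, the median widths were 716 bp (higher) and 405.5 bp (lower), by construction. With 5 kb around gene ends, 47.3% of higher and 41.4% of lower regions were inside genes and 31.4% and 37.0% at gene ends. With protein-coding genes only, 3.17% of higher and 5.62% of lower regions were at gene ends. At 20 kb, 49.7% of switches had both directions in a gene, and the cause was not tested. The share of pairs with the higher region on the 5′ side was 48.0% at 20 kb and 53.3% at 5 kb. No paired analysis was possible because the lists hold no values per sample, and leaving out a replicate was not possible for the same reason. Depth and signal per region are unknown, and a region's absence from a list does not show that nothing changed there.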

Other observations

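In 18 of 323 nearest pairs (5.57%, 3.55 to 8.64%), a listed protein-coding start lay in the gap between the lower and the higher region. Adjacent higher pairs gave 4.21% (2.71 to 6.49%) and adjacent lower pairs 10.3% (5.54 to 18.5%), and no test was made. The 19 starts had the lower region upstream in 9 cases and the higher region upstream in 10. They included Creb1, a cyclic AMP-responsive transcription factor (lower region 1470 bp before the start, higher region 7114 bp after it), Smarcc1, a subunit of the BAF chromatin remodelling complex (1222 bp before and 3225 bp after), and Rpl13, a ribosomal protein gene (2316 bp before and 6102 bp after). At the divergent genes Emc6 and Tax1bp3 on chromosome 11, which start within the same gap, the lower and higher regions were 2464 and 2381 bp from the start of Emc6. These genes were picked out after their values were seen.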
